A study of Mus musculus with 5 samples.

Results

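Genes of the smooth muscle contractile apparatus were followed through 5 single-cell libraries sorted from mouse liver. They are 10 of the 31053 genes counted in the files, and they were taken from a list: the actins Acta2 and Actg2, the myosin chains Myh11 and Myl9, the thin filament proteins Tagln, Cnn1, Tpm2 and Lmod1, the intermediate filament protein Des and the calcium pump inhibitor Pln. Membership rests on the list and not on a measured value. Cells were sorted by the autofluorescence of stored vitamin A (VitA), which marks hepatic stellate cells (HSC), and by green fluorescence in mice carrying Rosa26mTmG and Col1a1-Cre. All mice were males on a C57BL/6J background with both alleles. Because the Col1a1 promoter drives the Cre, a Col1a1+ cell is any cell in which that promoter was active at some time. In the DEN+WAD groups, diethyl nitrosamine (DEN) was given at 10 mg/kg at 2 weeks of age, and a liquid Western alcohol diet (WAD) with 3.5% ethanol by volume was fed for 5 months from 6 weeks of age. The chow groups came from mice that had saline and chow over the same ages. Each condition gave a library of the VitA+Col1a1+ gate and one of the VitA-Col1a1+ gate, and DEN+WAD also gave a library labelled VitA-Col1a1-. The 4 Col1a1+ libraries are called VitA+ chow, VitA+ DEN+WAD, VitA- chow and VitA- DEN+WAD. How many mice gave each library is not stated.

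In smooth muscle, actin and myosin filaments slide past each other when the myosin regulatory light chain is phosphorylated, and calponin, transgelin, tropomyosin and leiomodin bind and organize the actin filament. HSC hold desmin even when quiescent, and when activated they take up smooth muscle actin, which makes Acta2 the usual marker of an activated HSC. The same genes are expressed by vascular smooth muscle cells and pericytes, so Acta2 by itself does not name a cell. Lrat, the enzyme that esterifies retinol for storage, was therefore used to divide the cells.

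RNA molecules were counted by their unique molecular identifiers (UMIs), and a level is the gene's UMIs per 1000000 UMIs of a library or of a class of cells (CPM). With 1 library per group, differences between groups could not be checked against replicates and no test across animals was possible. The 95% intervals cover counting error only. In levels summed over cells, fewer expressing cells and less RNA per cell cannot be told apart. Libraries held 259 to 10481 cells and 6145748 to 149936344 UMIs, and the median depth ran from 9105.5 UMIs per cell in the library labelled VitA-Col1a1- to 24077 in VitA+ chow. The limit that a count of 0 allows, taken as 3 UMIs in a library, was 0.02001 to 0.488 CPM. Pairs of libraries shared between 0 and 21 cell barcodes. Col1a1 itself stood at 1062 CPM in the library labelled VitA-Col1a1-, so that its label is not borne out by the RNA and no direction is drawn from it. It also held the most macrophage or monocyte RNA, with 10 of 10 markers found and a summed 5580 CPM against 2.44 to 26.9 CPM in the others, and its file header names another version of the counting software, although the submitters' processing notes give the same one for all. A ratio between 2 libraries was called higher or lower when it was at least 2-fold and its counting interval excluded 1.

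Both actins were high in the VitA- libraries and low in the VitA+ libraries. Acta2 (ENSMUSG00000035783, chromosome 19, 34241090 to 34255590, GRCm38, minus strand) encodes smooth muscle alpha-actin. It stood at 10.4 CPM in VitA+ chow, 108 in VitA+ DEN+WAD, 1299 in VitA- chow, 634 in VitA- DEN+WAD and 874 in the library labelled VitA-Col1a1-. No counting interval of these 5 levels overlapped another, and the order put both VitA+ libraries at the bottom. Actg2 (ENSMUSG00000059430, chromosome 6, 83512905 to 83536265, minus strand), the enteric gamma-actin, had 0 UMIs in VitA+ chow, which allows up to 0.488 CPM, and 120 UMIs in VitA+ DEN+WAD (0.8003 CPM, counting interval 0.664 to 0.957). Its levels in VitA- chow, VitA- DEN+WAD and the library labelled VitA-Col1a1- were 110, 19.9 and 29.6 CPM.

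The myosin chains differed in how far they set the VitA- cells apart. Myh11 (ENSMUSG00000018830, chromosome 16, 14194535 to 14291372, minus strand), the smooth muscle myosin heavy chain, measured 22.6 CPM in VitA+ chow and 25.1 in VitA+ DEN+WAD, with overlapping intervals. Its highest level, 457 CPM, was that of VitA- chow, against 83.6 CPM for VitA- DEN+WAD and 109.5 CPM for the library labelled VitA-Col1a1-. Myl9 (ENSMUSG00000067818, chromosome 2, 156775420 to 156781658, plus strand), the regulatory light chain, was present in every library, with 154 CPM in VitA+ chow, 150 in VitA+ DEN+WAD, 630 in VitA- chow, 318 in VitA- DEN+WAD and 212 in the library labelled VitA-Col1a1-. Again the 2 VitA+ levels had overlapping intervals.

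Among the thin filament genes, Tagln and Tpm2 were found throughout, while Cnn1 and Lmod1 were low in VitA+ cells. Tagln (ENSMUSG00000032085, chromosome 9, 45929619 to 45936058, minus strand), or transgelin, measured 426 CPM in VitA+ chow, 708 in VitA+ DEN+WAD, 2371 in VitA- chow and 1477 in both other libraries. Tpm2 (ENSMUSG00000028464, chromosome 4, 43514711 to 43523765, minus strand), a tropomyosin, measured 49.5 and 64.5 CPM in VitA+ chow and DEN+WAD, 338 and 118 in VitA- chow and DEN+WAD, and 153 in the library labelled VitA-Col1a1-. Cnn1 (ENSMUSG00000001349, chromosome 9, 22099216 to 22109630, plus strand), or calponin 1, which holds back the actomyosin ATPase, had 0 UMIs in VitA+ chow and 30 UMIs, or 0.2001 CPM, among the 10481 cells of VitA+ DEN+WAD. Its level was 71.9 CPM in VitA- chow, 7.58 in VitA- DEN+WAD and 7.70 in the library labelled VitA-Col1a1-, and the last pair had overlapping intervals. Lmod1 (ENSMUSG00000048096, chromosome 1, 135324807 to 135368065, plus strand), the leiomodin that nucleates actin filaments in smooth muscle, measured 2.60, 7.49, 225, 81.5 and 83.0 CPM in VitA+ chow, VitA+ DEN+WAD, VitA- chow, VitA- DEN+WAD and the library labelled VitA-Col1a1-.

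Des did not follow the other members, and Pln was almost not detected. Des (ENSMUSG00000026208, chromosome 1, 75360329 to 75368579, plus strand), or desmin, measured 285 CPM in VitA+ chow, 317 in VitA+ DEN+WAD, 362.5 in VitA- chow, 292 in VitA- DEN+WAD and 163 in the library labelled VitA-Col1a1-. Its 4 levels in Col1a1+ libraries lay within a range that was narrow beside that of the other members. Pln (ENSMUSG00000038583, chromosome 10, 53337667 to 53345987, plus strand), or phospholamban, which restrains the calcium pump of the sarcoplasmic reticulum, had 0 UMIs in both VitA+ libraries, 23 UMIs (1.53 CPM) in VitA- chow, 6 UMIs (0.126 CPM) in VitA- DEN+WAD and 0.227 CPM in the library labelled VitA-Col1a1-.

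**Figure D1:**
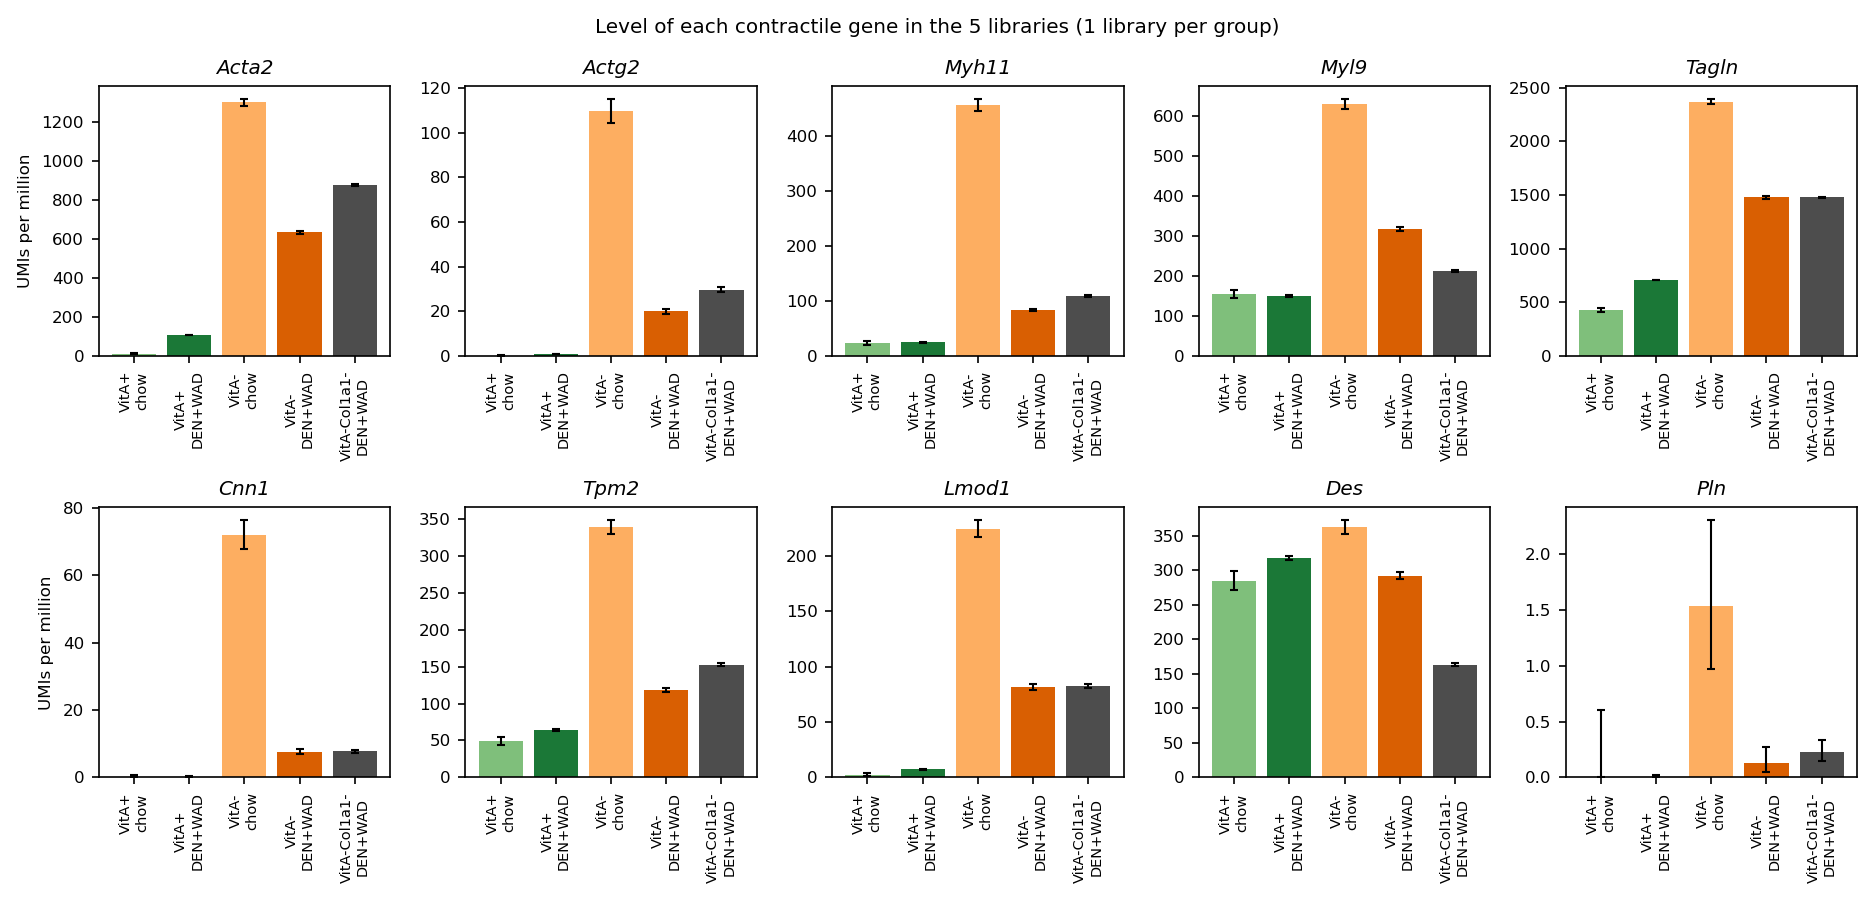
Level in CPM of each contractile gene in the 5 libraries, 1 panel per gene with its own linear axis from 0. Bars are the level of 1 library and black lines its 95% counting interval. In every panel except that of Des, the 3 VitA- libraries stand above both VitA+ libraries, and Pln rests on few UMIs.

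Between the gates of the same condition, most members stood on the VitA- side. In chow, 8 of the 9 members with a mean of at least 5 CPM over the libraries were called higher in VitA- than in VitA+, where 10.2% of the 10298 genes tested were called higher and 5.28% lower. The ratio was 125 for Acta2 (97.7 to 162), 86.3 for Lmod1 (53.1 to 151), 20.2 for Myh11 and 4.10 for Myl9, and it was at least 225-fold for Actg2 and at least 147-fold for Cnn1, which had 0 UMIs on the VitA+ side. Des was the exception at 1.27 (1.21 to 1.34). In DEN+WAD, 7 of the 9 were called higher, where 10.1% of genes tested were called higher and 1.57% lower. There the ratios ran from 2.09 for Tagln to 37.9 for Cnn1 (26.1 to 57.0), with Acta2 at 5.87, and neither Tpm2 (1.84) nor Des (0.920) was called. Lrat went the other way and measured 1931 and 1497 CPM in VitA+ chow and DEN+WAD against 380 and 611 CPM in VitA- chow and DEN+WAD.

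RefSeq promoter windows of GRCm38.p6 (250 bases before to 50 after a start site) were matched by symbol for 7 of the 10 members, and none was given for Actg2, Myh11 or Tagln. They were searched on both strands for the CArG box, the site of serum response factor that is known from smooth muscle promoters, and for the MCAT element GGAATG, which TEAD factors bind. The CArG box was read strictly, as CC, then A or T at the 6 inner bases, then GG. It was found in 1 of the 7, Myl9, and in 1.63% of the 32851 windows of that length. The MCAT element was found in 2 of the 7, Acta2 and Lmod1, and in 14.7% of all windows. Lrat, no member, also held an MCAT element. The bases around these matches are shown since no other member's window held one, with the match in capitals. For Lmod1 and Myl9 they are the bases of the window ahead of any GENCODE M21 exon of the gene, and for Acta2 the 30 bases around the element, which lies inside exon 1 of GENCODE because the RefSeq start site lies farther downstream:
Acta2 (chr19:34255502-34255531, minus strand): gagcagaacagaGGAATGcagtggaagaga
Lmod1 (chr1:135324563-135324806, plus strand): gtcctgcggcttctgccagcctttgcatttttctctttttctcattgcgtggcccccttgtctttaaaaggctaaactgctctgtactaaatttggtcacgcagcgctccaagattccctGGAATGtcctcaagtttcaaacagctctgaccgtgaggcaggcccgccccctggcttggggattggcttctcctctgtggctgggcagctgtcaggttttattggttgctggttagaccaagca
Myl9 (chr2:156775214-156775419, plus strand): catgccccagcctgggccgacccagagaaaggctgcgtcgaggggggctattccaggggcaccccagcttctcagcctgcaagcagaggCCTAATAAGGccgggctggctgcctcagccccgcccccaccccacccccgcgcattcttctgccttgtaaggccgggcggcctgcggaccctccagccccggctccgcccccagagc
The Acta2 element began 146 bases before the start site, that of Lmod1 began 130 bases before, and the Myl9 box began 161 bases before. Acta2 and Lmod1 were also the 2 members called higher in VitA+ DEN+WAD than in chow, as described next. Lrat, with the same element, was not higher there, and a link between the element and the ratios was not tested. The Acta2 window reached to base 34255623, a short way ahead of the GENCODE start of this minus-strand gene at 34255590. Sequence farther ahead of that start was not searched. A match of letters is no evidence that a factor was bound, and a window without a match says nothing about the factor.

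The next comparison asked how DEN+WAD liver differed from chow liver within the VitA+ gate. Acta2 was 10.4-fold higher in DEN+WAD (8.11 to 13.5, log2 3.37), resting on 64 UMIs in chow and 16178 in DEN+WAD. Lmod1 was 2.88-fold higher (1.76 to 5.05), on 16 and 1123 UMIs. In chow these UMIs lay in 11 cells for Acta2 and in 8 for Lmod1, and the intervals take no account of UMIs that share a cell. With a mean over cells in place of summed UMIs, Lmod1 was at 0.70 on the log2 scale and no longer called, while Acta2 was called at 2.51. These 2 of the 9 members tested were called higher and 0 lower, where 2.12% of the 10298 genes tested were called higher and 3.75% lower. The median log2 ratio was 0.55 over 8 of these members, with Actg2 at its lower bound and Cnn1 left out, and -0.07 over all genes tested. All 10 endothelial markers were found in both libraries, with a summed level of 641 CPM in chow and 308 CPM in DEN+WAD. The 11 vascular smooth muscle markers, of which 8 were found in chow and 11 in DEN+WAD, summed to 3490 and 4403 CPM. Most of the DEN+WAD sum was Rgs5, which stellate-like cells held, as shown further on. Smooth muscle-like cells, a class defined further on, were 0 of 254 in chow and 1 of 10213 in DEN+WAD. The part of either list in these ratios was not tested.

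None of the other 8 contractile genes was called in the VitA+ gate. Tagln was at 1.66 (1.60 to 1.73), Tpm2 at 1.30 (1.16 to 1.47) and Des at 1.11 (1.06 to 1.17). For Myh11 at 1.11 (0.936 to 1.32) and Myl9 at 0.976 (0.914 to 1.04), the interval included 1. Actg2, with 120 UMIs against 0, was at least 1.64-fold higher. For Cnn1, with 30 UMIs against 0, the chow library was too shallow to give a direction, and Pln had 0 UMIs in both.

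In the VitA- gate the direction was the opposite one. Here 6 of the 9 members tested were called lower in DEN+WAD than in chow and 0 higher, where 3.98% of genes tested were called lower and 5.22% higher. Cnn1 was at 0.105 of its chow level (0.0932 to 0.119), Actg2 at 0.181 (0.167 to 0.197) and Myh11 at 0.183 (0.176 to 0.190). Tpm2 at 0.350, Lmod1 at 0.363 and Acta2 at 0.488 (0.479 to 0.497) completed the 6. Myl9 at 0.505 (0.492 to 0.518) lay just outside the 2-fold line and Acta2 just inside it. Tagln at 0.623 and Des at 0.806 were not called, and Pln, too sparse for the set tested, stood at 0.0821 (0.0274 to 0.208). The median log2 ratio over the 9 was -1.46, against -0.02 over all genes tested. Without the smooth muscle-like cells, a class defined further on, 5 members were called lower, and Acta2, at -0.45 on the log2 scale, was no longer one of them. Markers of other cells differed between these libraries as well. Portal fibroblast markers (10 of 10 found in each) summed to 3948 CPM in chow and 1782 CPM in DEN+WAD, and endothelial markers (10 of 10) to 685 and 2040 CPM. Vascular smooth muscle markers (10 and 11 of 11) summed to 1911 and 2209 CPM, a sum that again includes Rgs5 of stellate-like cells. The part of these lists in the ratios was not tested.

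**Figure D2:**
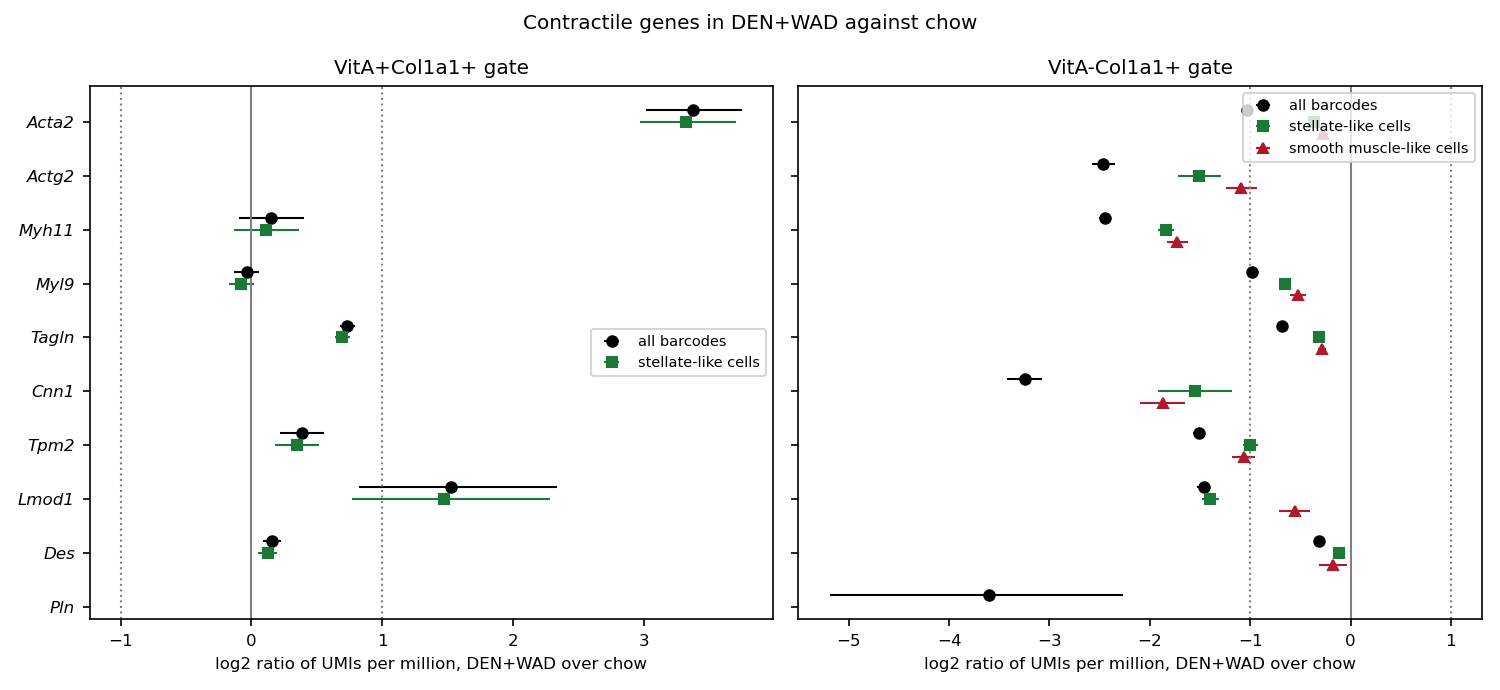
log2 ratio of CPM in DEN+WAD over chow for each contractile gene, in the VitA+ gate on the left and the VitA- gate on the right. Points are ratios between 2 libraries over all cells or over the cells of 1 marker class, lines are 95% counting intervals, dotted lines mark 2-fold, and ratios against a count of 0 and Pln within classes are left out. Acta2 at 3.37 and Lmod1 at 1.52 stand right of the 2-fold line on the left, and on the right all ratios shown lie below 0.

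For other genes of the contractile pathway, such as kinases, phosphatase subunits and actin-binding proteins, the median ratio lay nearer to 1 than that of the members. Of 42 tested out of 43 in this list, 1 was called higher and 0 lower in the VitA+ gate, where 2.12% of all genes tested were called higher and 3.75% lower, and the median log2 ratio was -0.04. The gene called was Fhl2, a LIM-domain protein, at 20.0 CPM in DEN+WAD and 9.44 in chow (2.12-fold, 1.64 to 2.80). The next highest were Tpm1, the main smooth muscle tropomyosin (1.92), Synpo2, an actin-bundling protein of the Z-disc (1.455) and Kcnmb1, a potassium channel subunit (1.35), and the lowest were Myh10 (0.570), Tpm4 (0.613), Itga8 (0.672) and Ppp1r12b (0.698).

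In the VitA- gate 6 of these 42 genes were called lower and 2 higher, with a median log2 ratio of -0.38, where 3.98% of all genes tested were called lower and 5.22% higher. The share called higher was thus near the background. The lowest were Cacna1c, the L-type calcium channel (0.198), Pdlim3 (0.227), Synpo2 (0.293) and Myh10, a non-muscle myosin heavy chain (0.312). The highest were Ednra and Agtr1a, receptors for endothelin and angiotensin, at 2.07 and 2.01, followed by Cnn3 (1.68) and Csrp1 (1.62), which were not called. Ednra measured 156 CPM in DEN+WAD and 75.3 CPM in chow.

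Since the sorted gates hold several cell types, cells with 5000 or more UMIs were put into classes by marker lists that contain no member. Each cell was thinned to 5000 UMIs and took the class of the list with the largest share of its genes found, with at least 3 found. Stellate-like cells were 95.3% and 98.1% of the VitA+ cells of chow and DEN+WAD, and 57.2% and 72.1% of the VitA- cells of chow and DEN+WAD. They were 48.3% of the library labelled VitA-Col1a1-. Smooth muscle-like cells numbered 69 in VitA- chow, or 10.7% (8.45 to 13.4%), and 67 in VitA- DEN+WAD, or 2.61% (2.02 to 3.30%). The library labelled VitA-Col1a1- held 84 of them, or 1.15%. In VitA+ cells there were 0 of 254 in chow and 1 of 10213 in DEN+WAD. At least 3 of the 12 stellate markers were found in 63 of the 69, 66 of the 67 and 84 of the 84 smooth muscle-like cells. The same was found in 129 of 130, 146 of 147 and 115 of 117 portal fibroblast-like cells of these libraries. It was found in 1 of 35, 119 of 436 and 702 of 2205 of their endothelial-like cells.

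The members did mark the smooth muscle-like cells, although none was used to find them. In VitA- chow, 8 of the 9 members tested were called higher in smooth muscle-like than in stellate-like cells, with 3.17% of all genes tested called higher and 5.43% lower. The same 8 of 9 were called in VitA- DEN+WAD, where 4.55% of genes were called higher and 7.17% lower. They were called as well in the library labelled VitA-Col1a1-, where the shares were 2.11% and 4.91%. Cnn1 had the highest ratio in each, at 47.7 in VitA- chow, 38.2 in VitA- DEN+WAD and 9.155 in the library labelled VitA-Col1a1-, and Actg2 followed at 24.0, 32.2 and 5.21. Acta2 was at 8.83, 9.42 and 3.59 and Myh11 at 8.32, 8.99 and 3.85. Des was the member not called, with ratios of 1.73, 1.66 and 1.82.

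How the UMIs of a gene were divided among classes differed between members. In VitA- chow, the smooth muscle-like 10.7% of cells held 81.1% of the Cnn1 UMIs, 75.8% of Actg2, 53.7% of Acta2 and 51.6% of Myh11, but 31.9% of Tagln, 29.3% of Lmod1 and 17.0% of Des. In VitA- DEN+WAD the smooth muscle-like 2.61% of cells held 57.1% of Cnn1, 53.3% of Actg2, 24.7% of Acta2 and 23.2% of Myh11. Stellate-like cells, 72.1% of the cells there, held 72.6% of Acta2. In VitA+ DEN+WAD, stellate-like cells, 98.1% of the cells, held 99.4% of the Acta2 UMIs and all 120 Actg2 UMIs.

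Portal fibroblast-like cells, which form the connective tissue around portal vessels, also held contractile RNA. The 130 portal fibroblast-like cells of VitA- chow held Acta2 at 451 CPM, Tagln at 1626, Myh11 at 190 and Cnn1 at 16.9 CPM. In the 147 of VitA- DEN+WAD these stood at 185, 1173, 49.0 and 1.58 CPM, and Des was at 307 CPM in chow and 302.5 CPM in DEN+WAD. Endothelial-like cells of the VitA- gate held Acta2 at 9.46 CPM in chow and 17.1 CPM in DEN+WAD, and in the library labelled VitA-Col1a1- at 92.3 CPM.

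**Figure D3:**
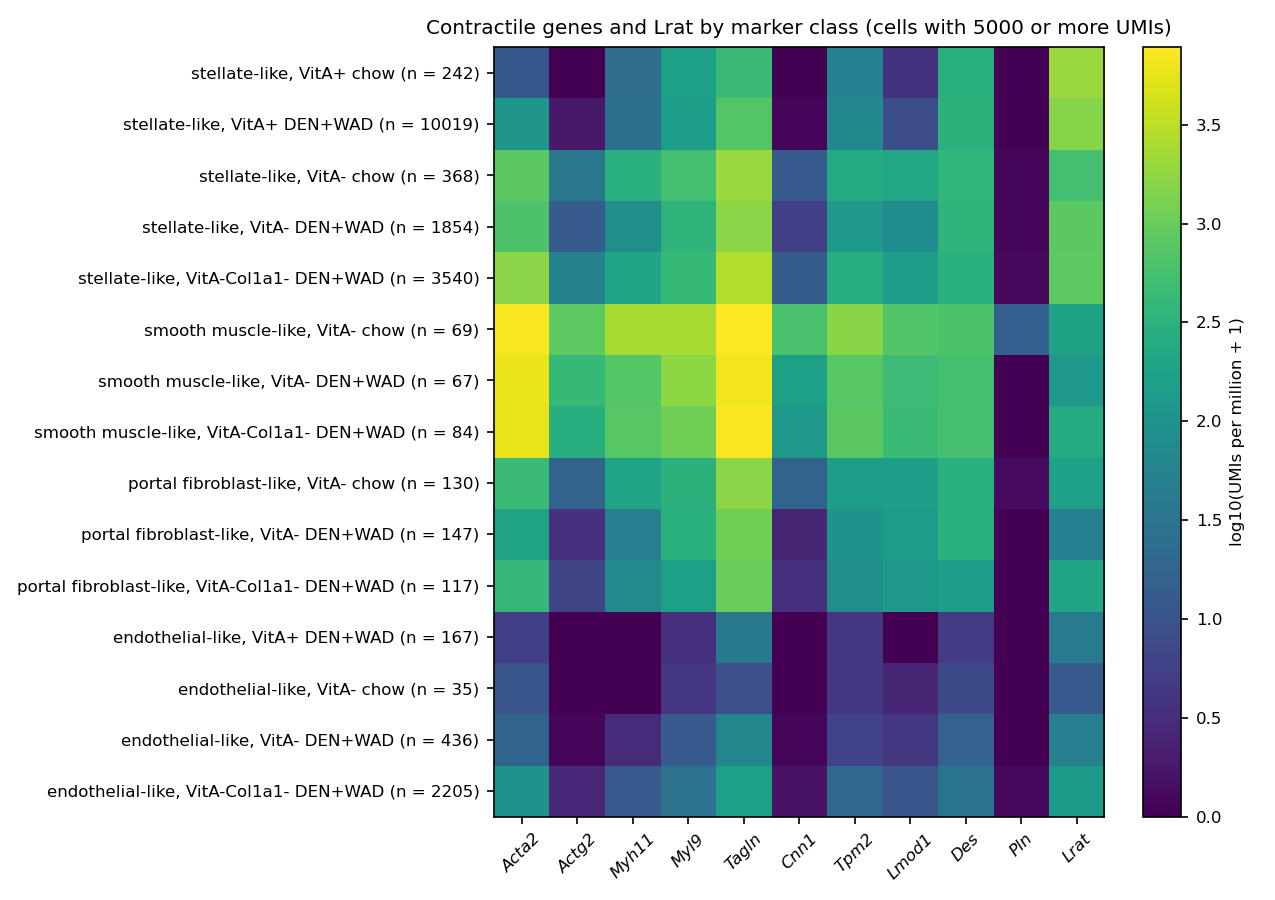
Levels of the contractile genes and of Lrat in marker classes of at least 30 cells, as log10 of CPM plus 1, on a colour scale from 0. Rows are a class in 1 library with its number of cells, and columns are genes. The 3 smooth muscle-like rows are the brightest for the members other than Des and Pln, Cnn1 and Actg2 are dark in VitA+ stellate-like rows, and endothelial-like rows are darker than stellate-like rows of the same library for the members other than Pln.

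Within stellate-like and within smooth muscle-like cells the DEN+WAD and chow libraries stood closer together in the VitA- gate, but not for every gene. In portal fibroblast-like cells, 130 in chow and 147 in DEN+WAD, the median log2 ratio over the 9 members was -0.59, against -0.107 over all genes tested. By the levels given above, Acta2 and Cnn1 lay farther apart in that class than in the whole gate. Among stellate-like cells of VitA-, 4 of the 9 members were called lower in DEN+WAD, with 4.87% of genes tested called lower and 3.86% higher. These were Myh11 (0.280), Cnn1 (0.3415), Actg2 (0.352) and Lmod1 (0.380), whereas Acta2 was at 0.777 (0.756 to 0.798) and Tagln at 0.805. Among smooth muscle-like cells, 4 of the 9 were called lower, against 5.44% of all genes lower and 2.51% higher, namely Cnn1 (0.274), Myh11 (0.302), Actg2 (0.471) and Tpm2 (0.478), with Acta2 at 0.829 and Lmod1 at 0.679. Pln had 21 UMIs in the smooth muscle-like cells of chow and 0 in those of DEN+WAD, so its level there was at most 0.166 of that in chow. In the stellate-like cells without Lrat, of which chow had 53, 0 members were called in this gate, with 1.72% of genes called higher and 2.77% lower. The median log2 ratio over the 9 members was -0.75 there, against -0.999 in all stellate-like cells, with Myh11 at 0.512 and Lmod1 at 0.536, while Acta2 was at 924 CPM in DEN+WAD and 909.5 CPM in chow (1.02, 0.947 to 1.09). In stellate-like cells of VitA+ the ratios were close to those of the whole gate, with Acta2 at 10.0 (7.85 to 13.0) and Lmod1 at 2.78 as the 2 members called higher, and 2.15% of genes were called higher and 2.80% lower.

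The number of UMIs of a member per Acta2 UMI differed between gates and conditions. In VitA+ chow there were 217 Myh11 UMIs for every 100 Acta2 UMIs, in VitA+ DEN+WAD 23.2, in VitA- chow 35.2 and in VitA- DEN+WAD 13.2. Cnn1 stood at 8.37 per 100 Acta2 UMIs in smooth muscle-like cells of VitA- chow, at 2.77 in those of VitA- DEN+WAD and at 0.143 in stellate-like cells of VitA+ DEN+WAD. Actg2 went from 11.9 to 6.77 and 0.748 over the same classes. Stellate-like cells of VitA- DEN+WAD held 149 Cnn1 and 433 Actg2 UMIs beside 21865 of Acta2, and those of VitA+ DEN+WAD 23 and 120 beside 16047. The Acta2 of VitA+ DEN+WAD cells thus came with less Cnn1 and Actg2 than that of VitA- DEN+WAD stellate-like cells, which in turn had less than smooth muscle-like cells.

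To tell activated HSC from smooth muscle, cells were also split by Lrat, with an Lrat-positive cell holding at least 1 Lrat UMI. Lrat-negative cells numbered 11 of 254 in VitA+ chow and 169 of 10213 in VitA+ DEN+WAD. In VitA- they numbered 163 of 643 in chow and 689 of 2572 in DEN+WAD, and 3045 of 7323 cells of the library labelled VitA-Col1a1- had none. Lrat-negative cells had a lower median depth than Lrat-positive cells in each library, for example 16058 against 17418 UMIs in VitA- DEN+WAD. They also held cells of other lineages, and 356 of the 689 Lrat-negative cells of VitA- DEN+WAD were endothelial-like.

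In VitA- chow, 5 of the 9 members tested were called higher in Lrat-negative than in Lrat-positive cells and 0 lower, with 5.27% of genes tested called higher and 1.46% lower. Cnn1 measured 196 CPM in Lrat-negative and 34.4 in Lrat-positive cells (5.70-fold, 5.03 to 6.46), and Actg2 271 and 60.7 CPM (4.46-fold). Myh11 measured 835 and 342 CPM (2.44-fold), Acta2 2340 and 984 CPM (2.38-fold) and Tpm2 601 and 259 CPM (2.32-fold). Of the 23 Pln UMIs found, 21 were in Lrat-negative cells and 2 in Lrat-positive cells. Des stood at 362 and 363 CPM, with a ratio of 0.999 (0.937 to 1.06). The counts depended on how cells were divided, with 2 members higher when Lrat was called at 5000 thinned UMIs. They were 0 higher and 9 lower when cells poor in stellate markers were set against cells with at least 3 of them. That last split could not tell smooth muscle from stellate cells. It left 1 smooth muscle-like cell among the 33 marker-poor cells and put 63 among the 597 others.

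The same split gave little in VitA- DEN+WAD. There 1 of the 9 members was called higher in Lrat-negative cells, where 9.67% of genes were called higher, and 0 lower, where 3.71% were. The member was Cnn1 with 14.8 CPM against 5.18 CPM (2.86-fold, 2.31 to 3.53), while Acta2 was at 508 in Lrat-negative and 679 in Lrat-positive cells (0.748) and Myh11 at 82.8 and 84.0 CPM. Without the cells that held at least 3 markers of another lineage, 3 members were called higher in Lrat-negative cells, and Acta2 measured 960 CPM against 715 in Lrat-positive cells.

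In the library labelled VitA-Col1a1-, 9 of the 9 members were lower in Lrat-negative cells, with 13.6% of genes called lower and 9.29% higher, and Acta2 measured 187 CPM against 1400.5 CPM (0.133). Most Lrat-negative cells there were endothelial-like (1622) or macrophage-like (825). Without cells holding at least 3 markers of another lineage, Acta2 was at 1887 CPM in 251 Lrat-negative cells and 1791 CPM in 2741 Lrat-positive cells, and 0 members were called in either direction. In VitA+ DEN+WAD, 2 members were called higher in the 169 Lrat-negative cells and 2 lower, where 17.7% of genes were called higher and 9.87% lower. With Lrat called at 5000 thinned UMIs the counts were 7 higher and 0 lower, and without cells of another lineage 6 higher and 0 lower. Acta2 (333 against 105 CPM) and Cnn1 were the higher ones and Des and Myh11 the lower ones. The Cnn1 call rested on 7 UMIs, of which 6 lay in cholangiocyte-like cells and 1 in the smooth muscle-like cell. The 14 Lrat-negative cells that were stellate-like held Acta2 at 1818 and Tagln at 6791 CPM. In VitA+ chow, the 11 Lrat-negative cells had 0 UMIs of 9 members and 2 UMIs of Tagln, and 4 of the 9 tested members were called lower, with 8.52% of genes called lower and 17.2% higher.

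Lrat did not divide the smooth muscle-like cells from the rest. Of them, 52.2% in VitA- chow, 64.2% in VitA- DEN+WAD and 81.0% in the library labelled VitA-Col1a1- had an Lrat UMI at full depth, at median depths of 19977, 18457 and 12599.5 UMIs. In endothelial-like cells, which should lack the gene, the shares were 11.4%, 18.35% and 26.4% in the same order, at median depths of 17606, 13859.5 and 8621 UMIs. At 5000 UMIs per cell the smooth muscle-like shares were 34.8%, 32.8% and 63.1% and the endothelial-like ones 5.71%, 8.49% and 20.5%. The level of Lrat in smooth muscle-like cells was 177, 118 and 244 CPM, below the 543.5, 820 and 859 CPM of stellate-like cells. Within the smooth muscle-like cells of VitA- chow, those without Lrat held more Myh11 than those with it (3372 against 1659 CPM), more Cnn1 (940 against 323 CPM) and more Acta2 (9467 against 5325 CPM), and all 21 Pln UMIs of the class. In VitA- DEN+WAD, the 43 with Lrat held 5173 Acta2 and 605 Myh11 UMIs, and the 24 without it 2275 and 314. Per cell, neither gene was higher without Lrat there.

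DEN+WAD and chow were also compared within the Lrat classes. In Lrat-positive cells of VitA+, 2 of the 9 members were called higher in DEN+WAD, where 2.46% of genes were called higher and 2.61% lower, with Acta2 at 9.77 (7.64 to 12.7) and Lmod1 at 2.775 (1.70 to 4.87). In Lrat-positive cells of VitA-, 5 were called lower, where 5.13% of genes were called lower and 5.33% higher, from Cnn1 at 0.1505 (0.126 to 0.180) to Tpm2 at 0.483, and Acta2 was at 0.690 (0.675 to 0.706). In Lrat-negative cells of VitA-, 8 were called lower, where 3.73% of genes were called lower and 4.75% higher, with Acta2 at 0.217, Myh11 at 0.0991 and Cnn1 at 0.07555. Of all cells of this gate, endothelial-like cells were 5.44% in chow and 16.95% in DEN+WAD. Only 4 of these 35 cells in chow and 80 of these 436 in DEN+WAD held Lrat. Their shares of the Lrat-negative cells were therefore larger than the shares of all cells. Smooth muscle-like cells were 33 of the 163 Lrat-negative cells of chow and 24 of the 689 of DEN+WAD. The part of either class in the ratios of the Lrat-negative cells was not tested. The VitA+ Lrat-negative cells of chow, 11 in all, were too few to compare.

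The share of cells with a member showed how the levels were spread, again at 5000 UMIs per cell. Acta2 was found in 5.72% of the Lrat-positive cells of VitA+ DEN+WAD (5.27 to 6.19%, 8.90% at full depth) and in 4 of 243, or 1.65%, of those of VitA+ chow (4.53% at full depth). In VitA- it was found in 38.75% of those of chow and 23.3% of those of DEN+WAD, and the library labelled VitA-Col1a1- had 51.4%. Endothelial-like cells, at the median depths of 8961 to 17606 UMIs per cell, gave 0.599% for Acta2 in VitA+ DEN+WAD and 5.71% in VitA- chow. They gave 5.05% in VitA- DEN+WAD and 9.98% in the library labelled VitA-Col1a1-, and the shares of Lrat-positive cells lay above these, at median depths of 12429.5 to 23298 UMIs. The 10 endothelial-like cells of VitA+ chow gave 0.

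Des and Tagln were the members found in most Lrat-positive cells. Des was found in 61.3 to 77.5% of them and Tagln in 58.0 to 90.6% over the 5 libraries. Cnn1 was found in 0.0398% of the Lrat-positive cells of VitA+ DEN+WAD (4 of 10044) and in 5.42% of those of VitA- chow, and Lmod1 in 2.15% and 52.9%. In VitA+ chow, Lmod1 was found in 3 of 243, or 1.235% (0.255 to 3.565%), an interval that covers the 2.15% of VitA+ DEN+WAD. A single cell of smooth muscle-like class had a median of 8 of the 10 members in VitA- chow and 7 in VitA- DEN+WAD, while Lrat-positive cells had a median of 2 in both VitA+ libraries and of 4 and 3 in VitA- chow and DEN+WAD. At least 5 members were found together in 3.93% of the Lrat-positive cells of VitA+ DEN+WAD and 2.88% of those in chow. The share was 47.1% in VitA- chow, 17.2% in VitA- DEN+WAD and 36.0% in the library labelled VitA-Col1a1-.

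**Figure D4:**
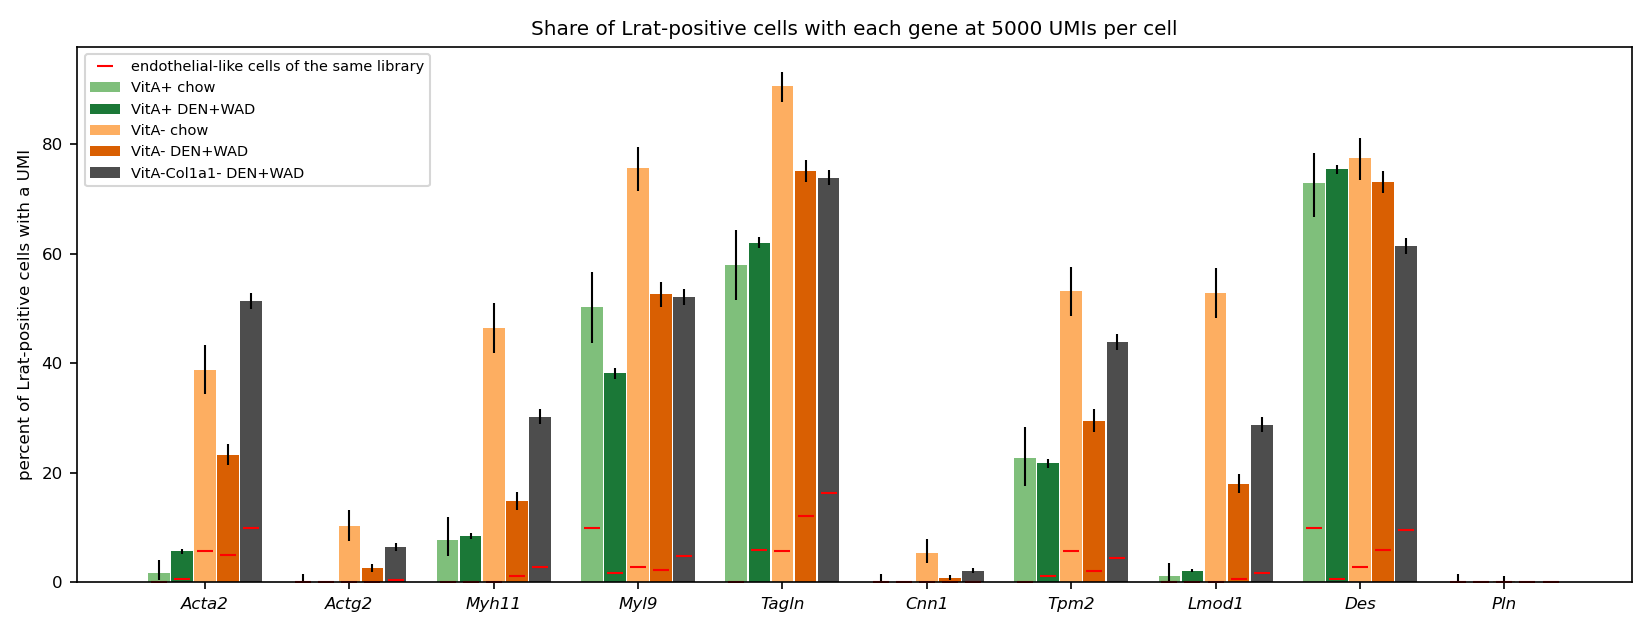
Percent of Lrat-positive cells with at least 1 UMI of each contractile gene when each cell is thinned to 5000 UMIs, as bars from 0 with exact binomial 95% intervals, 1 colour per library. Red marks give the share in endothelial-like cells of the same library. For Acta2 the bars run from 1.65% in VitA+ chow to 51.4% in the library labelled VitA-Col1a1-, and for Des all 5 bars lie between 61.3% and 77.5%.

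To see what came with Acta2 in cells that kept Lrat, Lrat-positive stellate-like cells were put in bins by their Acta2 UMIs at 5000 UMIs per cell, and the other genes were read at full depth. Cells with 10 or more Acta2 UMIs numbered 104 among VitA+ DEN+WAD cells (1.04%). In the VitA- gate they numbered 48 in chow (15.2%) and 119 in DEN+WAD (7.15%), and the library labelled VitA-Col1a1- had 814 (24.3%). In VitA+ chow 98.35% of the cells had no Acta2 UMI, and no bin above 0 held 10 cells. Acta2 chose these bins, so its own level in them is no result, and values within a library share its depth and its sort.

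In VitA+ DEN+WAD, every member that could be read went up with Acta2. From the cells with 0 to those with 10 or more Acta2 UMIs, Tagln went from 482 to 6968 CPM, Lmod1 from 2.63 to 204, Myh11 from 18.2 to 306 and Myl9 from 119 to 1103, while Des went from 313 to 531. Cnn1 reached 7.08 CPM, on 16 UMIs. Over the same bins Lrat went from 1564 down to 631 CPM and the stellate marker Reln from 1218 down to 494 CPM, while Col1a1, the collagen chain, went from 206 to 1912 CPM and Timp1, an inhibitor of matrix proteases, from 46.6 to 638 CPM. The median depth of the cells was 13283 UMIs in the lowest bin and 21440 in the highest, and its part was not tested.

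The cells with 10 or more Acta2 UMIs were not alike across libraries. Timp1 in them was at 638 CPM in VitA+ DEN+WAD, 2.86 in VitA- chow (3 UMIs), 50.5 in VitA- DEN+WAD and 104 in the library labelled VitA-Col1a1-. Myh11 was at 306, 964, 482 and 490 CPM in the same order of libraries, and Cnn1 at 7.08, 85.0, 41.0 and 42.5 CPM. Rgs5, a signalling regulator of pericytes, went down with Acta2 in VitA+ DEN+WAD, from 3432 to 1609 CPM, and up in VitA- chow, from 287 to 2619 CPM. Col1a1 in VitA- chow was at 1314 CPM at 0 and 1665 CPM at 10 or more Acta2 UMIs, a narrower span than in the VitA+ library.

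**Figure D5:**
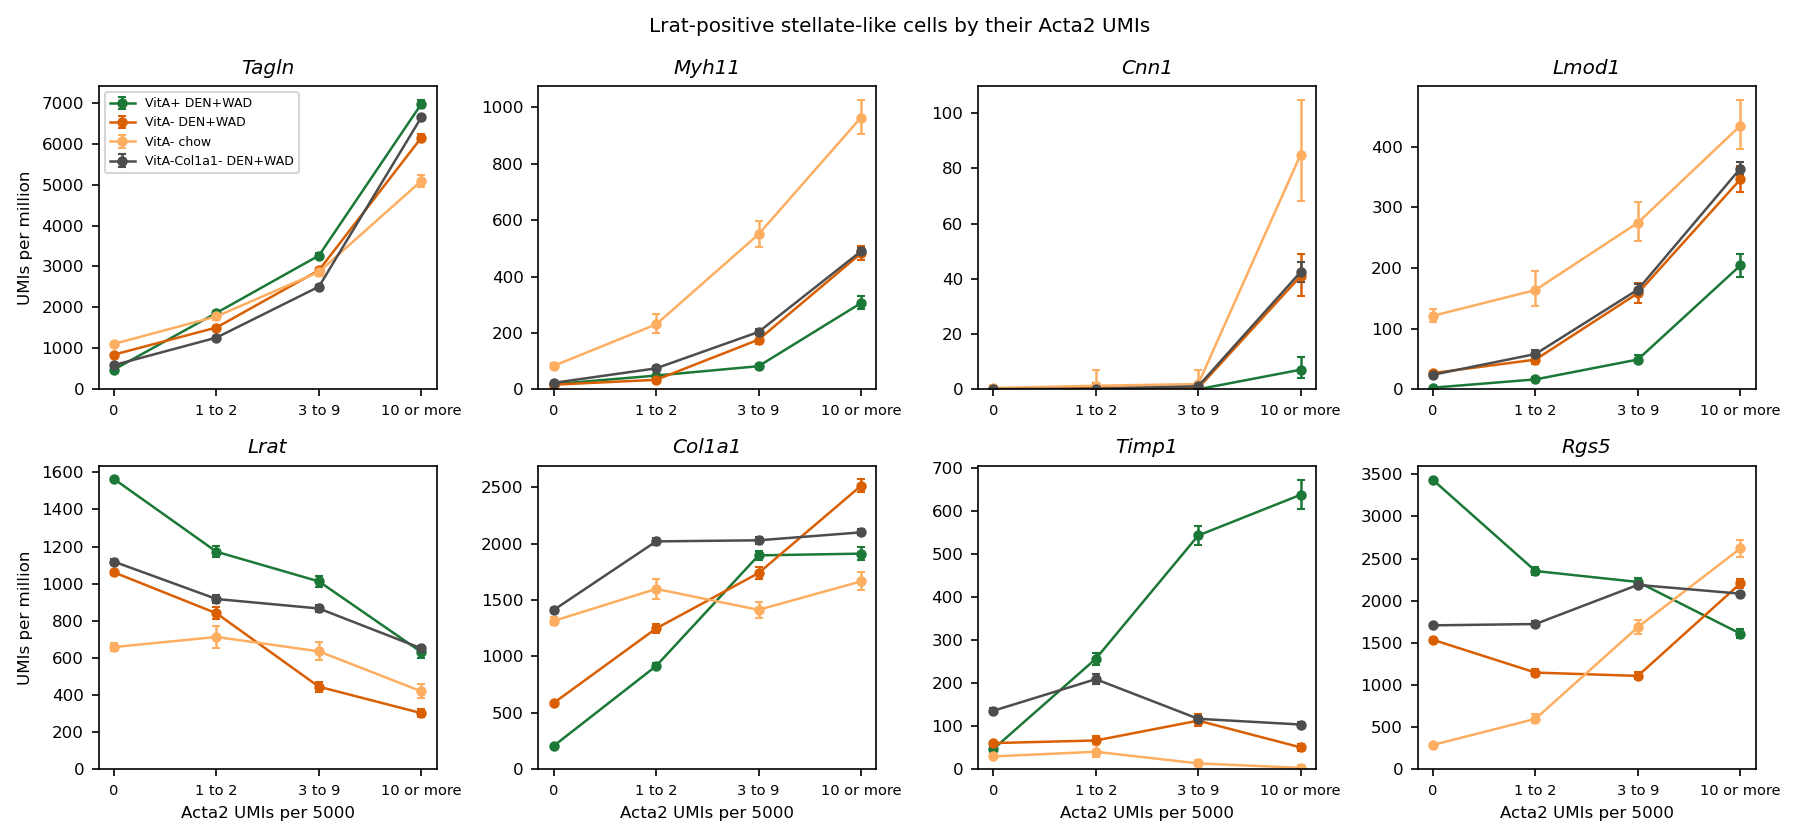
Level in CPM of 8 genes in Lrat-positive stellate-like cells, against the cells' Acta2 UMIs after thinning to 5000 UMIs, on linear axes from 0. Lines join the bins of 1 library and bars are 95% counting intervals over the summed cells of a bin. Timp1 climbs to 638 CPM in VitA+ DEN+WAD and to no more than 209 CPM in any other library, whereas Myh11 climbs highest, to 964 CPM, in VitA- chow.

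Genes whose level over cells was most like that of the summed members were listed by Pearson's r on log2 of UMIs plus 1 at 5000 UMIs per cell, as a description in which all cells of a library share its depth and base of free RNA. Tagln gives the most UMIs of the sum. Over the 10044 Lrat-positive cells of VitA+ DEN+WAD, the 10 genes with the highest r were Tpm1 (0.368), Prss23, Actb, Tgfb2, Myl6, Notch3, Cald1, Lgals1, Htra1 and Ctgf (0.268). Of these, 4 were from the contractile pathway list, and all were weak in these sparse counts. Over the 689 Lrat-negative cells of VitA- DEN+WAD, they were Colec11 (0.836), Col14a1, S100a6, Sod3, Serping1, Rarres2, Lhfp, Crip1, Dcn and Ccl19 (0.755), of which Colec11 is a stellate marker, and the 356 endothelial-like cells at the low end share in these values. Over the 163 Lrat-negative cells of VitA- chow, they were Tpm1 (0.829), Cald1, Flna, Myl6, Kcnk3, Mylk, Prss23, S100a6, Mustn1 and Ppp1r14a (0.669), most of them from the contractile pathway list.

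Pairs of members went together to different degrees. Over the Lrat-positive cells of VitA+ DEN+WAD, r with Acta2 was 0.430 for Tagln, 0.432 for Lmod1, 0.309 for Myh11 and 0.0840 for Des. Over the 480 Lrat-positive cells of VitA- chow, it was 0.656, 0.509, 0.736 and 0.0260 for the same genes. Des was the least related to Acta2 of these 4 in both libraries.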

How the data were processed

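Sorted single cells of mouse liver were captured on the 10x Genomics platform. The sources give both v3.1 and v2 of the 3' chemistry, and which applied is not known. The authors aligned reads to mm10 and counted UMIs with Cell Ranger, and what they deposited for each gene in each cell was the UMI count without normalization. The file headers name Cell Ranger 3.1.0 for the 4 Col1a1+ libraries and 6.1.2 for the library labelled VitA-Col1a1-, whereas the submitters' processing notes give 3.1.0. Levels of a whole library include all barcodes in the files.

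The members, the lists and the comparisons were chosen with earlier results of these data known, so none of the choices is independent of them. Groups were taken from the labels. UMIs were summed over cells and scaled to 1000000. Levels carry exact Poisson intervals, ratios conditional binomial intervals and shares exact Clopper-Pearson intervals, all at 95%. Fold changes against a count of 0 use a floor of 3 UMIs per class of cells. Backgrounds cover the 10298 genes with a mean of at least 5 CPM over the 5 libraries, 9 of them members. Cells were thinned at random (seed 7), and 268, 157, 5, 25 and 2547 cells under 5000 UMIs were left out of classes and shares in VitA+Col1a1+ DEN+WAD, VitA-Col1a1+ DEN+WAD, VitA+Col1a1+ chow, VitA-Col1a1+ chow and the library labelled VitA-Col1a1-. No doublet caller was run, and possible doublets were treated by leaving out cells above the 95th percentile of UMIs or with 3 markers of another lineage. Genes named outside the members were the 4 highest and 4 lowest of the pathway list in each gate, the 10 most like the members, and markers from the lists. The bins by Acta2 were chosen after its values were seen.

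Genes were located in GENCODE M21 (GRCm38), which held 31011 of the 31053 identifiers (99.9%). Python 3.11.15, numpy 2.4.6, scipy 1.17.1, pandas 2.3.3 and matplotlib 3.10.9 were used, with TMM factors from edgeR 4.0.16 in R 4.3.3. The ratios and calls were tested on simulated counts.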

Additional observations from a re-analysis of the deposited data

Results flagged for a closer look

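For 2 members the DEN+WAD over chow ratio pointed in opposite directions in the 2 Col1a1+ gates, each past 2-fold with an interval that excluded 1. Acta2 was at 10.4 in VitA+Col1a1+ and at 0.488 in VitA-Col1a1+. Lmod1 was at 2.88 in VitA+Col1a1+ and at 0.363 in VitA-Col1a1+. Each gate had 1 library per condition, so the difference between gates was not tested. In stellate-like cells alone Acta2 was at 10.0 in VitA+Col1a1+ and 0.777 in VitA-Col1a1+, and Lmod1 at 2.78 and 0.380. With a mean over cells, Lmod1 in VitA+Col1a1+ was at 0.70 on the log2 scale and was not called.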

How the results depend on the processing

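With 1 library per group, the limits are the number of cells in the chow libraries (259 and 668), the depth per cell and the absence of replicates. No paired analysis was possible because each group held 1 library. In the VitA+Col1a1+ gate the 2 members called higher became 1 with a mean over cells, which left out Lmod1. In the VitA-Col1a1+ gate every count stayed within 1.5 times the value reported, including 2 alternatives added after seeing the data, stellate-like cells alone (4 lower in place of 6) and no smooth muscle-like cells (5 lower). Acta2 was not called lower in either, at -0.36 and -0.45 on the log2 scale. The ratio of Pln there turned from -3.61 to 0.56 on the log2 scale in stellate-like cells alone, on 6 and 1 UMIs.

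The split by Lrat depended most on how cells were divided, and the cause was not tested. With Lrat called at 5000 thinned UMIs, members higher in Lrat-negative cells went from 2 to 7 and members lower from 2 to 0 in VitA+Col1a1+ DEN+WAD, higher ones from 1 to 2 in VitA-Col1a1+ DEN+WAD and from 5 to 2 in VitA-Col1a1+ chow. With cells divided by stellate markers in place of Lrat, the higher ones were 1, 0 and 0 in these libraries and the lower ones 6, 9 and 9. In the same order, 1, 66 and 63 smooth muscle-like cells fell on the marker-rich side and 0, 1 and 1 on the other. That split thus could not tell smooth muscle from stellate cells. Without cells of another lineage, VitA+Col1a1+ DEN+WAD had 6 higher and 0 lower, VitA-Col1a1+ DEN+WAD 3 higher, and the library labelled VitA-Col1a1- 0 lower in place of 9. No Lrat-negative cell of VitA+Col1a1+ chow was left under this choice, so it gave no value there. A mean over cells gave 4 lower in VitA+Col1a1+ DEN+WAD and 1 in VitA+Col1a1+ chow, cells of 10000 or more UMIs gave 1 lower in VitA+Col1a1+ DEN+WAD, and TMM scaling gave 1 lower in VitA-Col1a1+ DEN+WAD.

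The share of Lrat-positive cells with Acta2 moved with depth and threshold. At full depth, at 2000 UMIs and with at least 2 UMIs it was 8.90%, 4.18% and 3.74% in VitA+Col1a1+ DEN+WAD. In the same order it was 54.4%, 31.5% and 31.5% in VitA-Col1a1+ chow, and 36.6%, 17.5% and 16.0% in VitA-Col1a1+ DEN+WAD. The library labelled VitA-Col1a1- gave 59.9%, 42.9% and 41.65%, and VitA+Col1a1+ chow gave 4.53% at full depth. Smooth muscle-like shares stayed within their intervals at 2 and at 4 markers.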
